A study of Mus musculus with 6 samples.

Results

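The 9 genes described here are the core of the Hedgehog pathway and a transcription factor gene that it controls in lung mesenchyme. They were taken by symbol from the deposited table of 55359 genes. They are the ligand gene Shh, the receptor gene Ptch1, the inhibitor gene Hhip, the signal transducer genes Smo and Sufu, the transcription factor genes Gli1, Gli2 and Gli3, and Foxf1. Each symbol stood on 1 row, and all 9 had enough counts to be among the 17728 genes tested. Poly(A) RNA of whole lungs from 6 C57 mouse embryos was sequenced at E18.5, late in gestation. Of these, 3 carried a wild type genotype label and 3 a Prmt5 knockdown label. Replicates are numbered 1 to 3 within each group in the order of deposit, and a number shared by both groups pairs no embryos. Prmt5 encodes an arginine methyltransferase. The series text describes a knockout in lung mesenchyme that is tied to Dermo1, another name of Twist2. The housing note, which is the same for all 6 samples, speaks of pregnant mice with the mesenchymal knockdown. The sources used here give neither the recombinase and the floxed allele nor the litters.

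Hedgehog signalling runs from the lung epithelium to the mesenchyme. Epithelial cells secrete Sonic hedgehog, the product of Shh. In mesenchymal cells it binds Patched 1, which otherwise holds the membrane protein Smoothened inactive. Active Smoothened frees the Gli transcription factors from Sufu at the primary cilium. Gli2 is the main activator, Gli3 acts largely as a repressor, and Gli1 is itself a target gene and an amplifier. Ptch1, Hhip and Gli1 are standard target genes, and the products of Ptch1 and Hhip bind the ligand and limit its spread. Foxf1 encodes a forkhead factor of the lung mesenchyme and the capillary endothelium whose expression depends on Hedgehog signals in the embryonic lung. In RNA of a whole organ, fewer cells of a type and less RNA per cell cannot be told apart.

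The sequence just before the transcription start was available for 6 of the 9 members, namely Gli2, Gli3, Hhip, Ptch1, Smo and Sufu, and for Fendrr, the noncoding neighbour of Foxf1. The windows are the 250 bases upstream of the RefSeq start in GRCm38.p6. Those of Hhip and Ptch1 are shown because both are target genes whose groups did not overlap, and that of Fendrr because it lies between Fendrr and Foxf1, which are transcribed away from each other. Capitals mark the letters CCACCC, the core of the GLI motif, or the forkhead letters GTAAACA, on either strand.

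Hhip, chr8:80058009-80058258, minus strand: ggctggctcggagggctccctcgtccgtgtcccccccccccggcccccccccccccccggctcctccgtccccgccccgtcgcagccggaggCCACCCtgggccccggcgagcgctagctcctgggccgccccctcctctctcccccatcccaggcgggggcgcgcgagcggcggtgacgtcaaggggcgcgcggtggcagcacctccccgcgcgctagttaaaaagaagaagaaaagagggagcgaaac

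Ptch1, chr13:63565736-63565985, minus strand: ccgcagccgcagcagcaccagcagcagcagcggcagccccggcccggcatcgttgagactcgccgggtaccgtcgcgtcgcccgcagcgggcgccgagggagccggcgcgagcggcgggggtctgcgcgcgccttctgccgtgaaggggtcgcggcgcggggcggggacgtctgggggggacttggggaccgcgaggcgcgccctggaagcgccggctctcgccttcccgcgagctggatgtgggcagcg

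Fendrr, chr8:121083111-121083360, minus strand: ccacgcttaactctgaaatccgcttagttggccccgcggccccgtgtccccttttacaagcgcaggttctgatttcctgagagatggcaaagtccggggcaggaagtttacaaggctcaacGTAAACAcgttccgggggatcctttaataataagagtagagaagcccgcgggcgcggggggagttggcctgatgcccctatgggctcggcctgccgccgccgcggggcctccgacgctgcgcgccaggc

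The full GLI motif GACCACCCA, which contains the core, was found on neither strand in any of these windows, the other 4 members included. It is in 0.225% of 32851 such windows of the genome. The core alone was found 1 time in the Hhip window and 0 times in that of Ptch1, and 28.1% of all windows hold it. The forkhead letters were found 1 time in the Fendrr window, and 3.17% of all windows hold them. None of the 3 windows printed overlapped an annotated exon. GC content was 76.0% for Hhip, 78.4% for Ptch1 and 62.0% for Fendrr, against a median of 52.4% over all windows. A match of letters is a description, and these windows leave out distant enhancers.

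Library totals ranged from 14383415 to 19262837 counts. Libraries of the same group were further apart than sampling noise, so each counted as 1 replicate. The labels do not say that the embryos came from separate litters, so the p-values measure only the spread between these samples, part of which may be technical. Prmt5 itself stood at 47.4 ± 0.777 CPM (counts relative to the library total after TMM scaling) in wild type and 44.7 ± 4.49 CPM in the knockdown-labelled libraries (SD, n = 3 each), and the difference did not pass (edgeR adjusted p = 0.682). Since the counts do not single out the deleted part of the gene, every direction rests on the labels. Xist and Y-linked genes marked 1 embryo of the wild type group (replicate 1) and 2 of the other group (replicates 1 and 3) as male. Genes of heart muscle had a summed level of 531 to 3061 CPM in wild type and 3520 to 11806 CPM in the knockdown-labelled libraries, highest in replicate 2. Each of the 12 genes on that list was detected, and the source of this RNA was not tested.

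Group differences were uneven across the Hedgehog genes. Hhip and Foxf1 had the largest differences, with means 2.05-fold and 1.56-fold lower in the knockdown-labelled lungs. Means of Shh and Ptch1 were 1.27-fold lower each. Gli1, Gli2, Gli3, Smo and Sufu lay within 1.11-fold of wild type. None of the 9 passed an adjusted p of 0.05 over all genes in edgeR's quasi-likelihood test, where 0.0338% of the genes tested were called, 0.0282% lower and 0.00564% higher. At an unadjusted p under 0.05 there were 4 members, all lower, against 8.52% of all genes lower and 8.48% higher. DESeq2 called 2, Hhip and Foxf1, where it called 4.78% of genes in all and 2.63% as lower. All 9 log2 fold changes were negative, as were 47.1% of those over all genes, and the signs of Gli1, Gli2, Smo and Sufu turned in some alternative fits. For 5 members the knockdown-labelled libraries all lay below the wild type ones, and 12.4% of all genes did so.

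**Figure D1:**
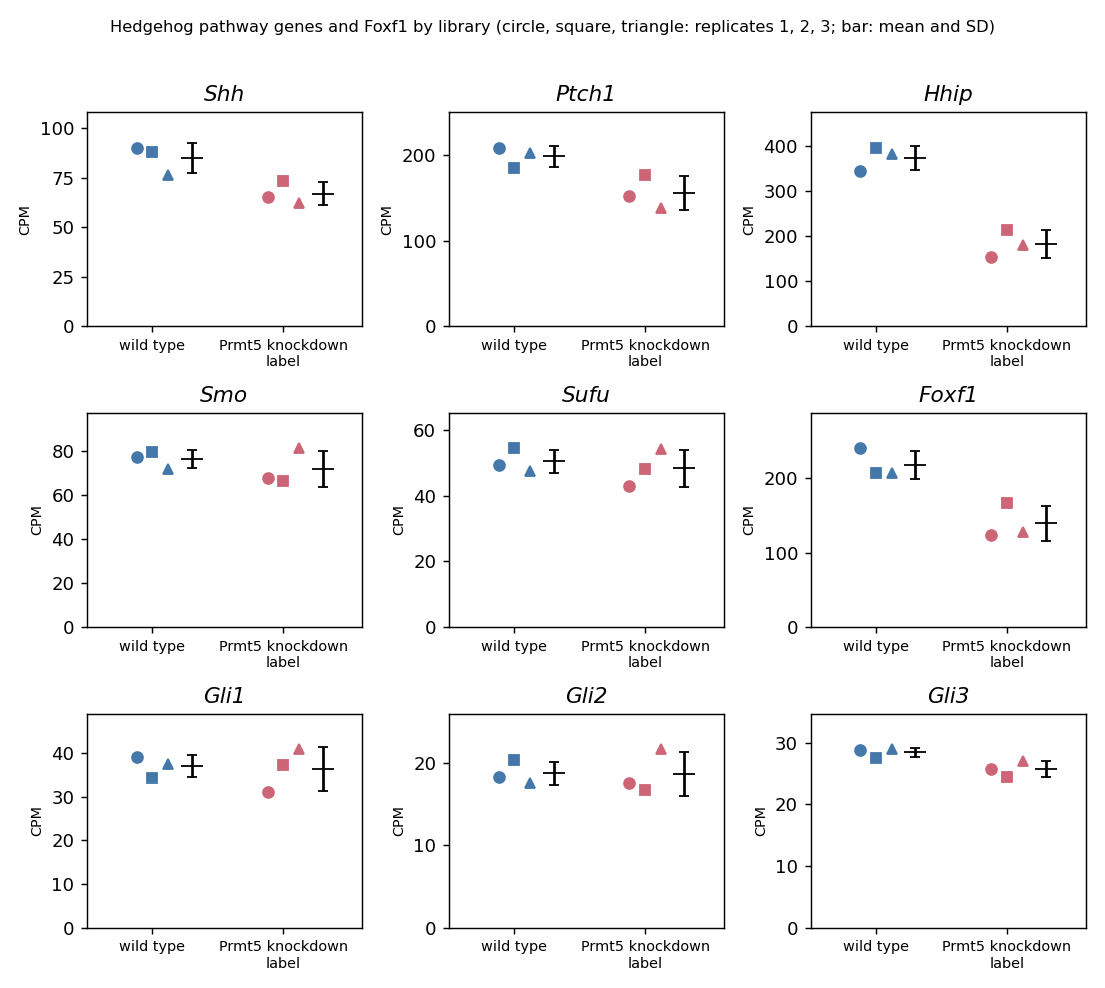
Level in CPM of each of the 9 genes in each library, with circles, squares and triangles for replicates 1, 2 and 3 and black bars for the group mean and SD; every axis starts at 0. The groups are apart for Shh, Ptch1, Hhip, Foxf1 and Gli3 and overlap for Smo, Sufu, Gli1 and Gli2.

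Shh (ENSMUSG00000002633, chromosome 5, 28661813 to 28672254, minus strand in the table's coordinates) is the only Hedgehog ligand gene with high counts in these lungs. Its level was 90.1, 88.1 and 76.1 CPM in wild type replicates 1 to 3 and 65.2, 73.3 and 62.3 CPM in knockdown-labelled replicates 1 to 3. The lowest wild type library was close to the highest knockdown-labelled one. Mean levels of 84.8 ± 7.54 and 66.9 ± 5.70 CPM (SD, n = 3 each) differed by -0.34 on the log2 scale, with a standard error of 0.10 (edgeR adjusted p = 0.184). Ihh, another ligand gene, had 46 counts over all 6 libraries and was not tested. Dhh, the remaining ligand gene, made in Schwann cells and endothelium, stood at 3.13 ± 0.345 against 2.32 ± 0.104 CPM.

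Other epithelial genes were read beside Shh. Of 15 general epithelium markers, such as Epcam and Nkx2-1, 0 were called in edgeR and 0 had an unadjusted p under 0.05, and their median log2 fold change was 0.09 against 0.01 over all genes tested (0.057, 0.18 and -0.0033 without knockdown-labelled replicates 1, 2 and 3 in turn). Their summed level was 2411 to 2790 CPM in wild type and 2519 to 2814 CPM in the knockdown-labelled libraries. Divided by the geometric mean of these markers within each library, the mean of Shh differed by -0.41 on the log2 scale (-0.64 with the median of the markers), with overlap between the groups (exact two-sided permutation p = 0.2, where 3 against 3 libraries cannot go below 0.1). Alveolar type 1 markers differed from this. The 8 genes had a median of -0.45, 6 had an unadjusted p under 0.05 with lower levels and 0 were called. Of all genes tested, 8.52% were lower at that level. The part of the alveolar type 1 markers in the level of Shh was not tested.

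Ptch1 (ENSMUSG00000021466, chromosome 13, 63656142 to 63721412, minus strand) encodes the receptor and responds to the signal. Wild type libraries had 209, 185 and 202 CPM and knockdown-labelled ones 152, 177 and 138 CPM. Knockdown-labelled replicate 2 came close to wild type replicate 2, and the groups did not overlap. Mean levels of 198 ± 12.1 and 156 ± 19.5 CPM (SD, n = 3 each) differed by -0.35 on the log2 scale, with a 95% confidence interval of -0.60 to -0.10 (edgeR adjusted p = 0.191).

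Hhip (ENSMUSG00000064325, chromosome 8, 80692480 to 80784635, minus strand) encodes a surface protein that captures Hedgehog ligand and is made by Hedgehog-responding mesenchyme. Its level was 344, 396 and 382 CPM in wild type and 153, 214 and 180.0 CPM under the knockdown label. The latter were 41.0%, 57.2% and 48.1% of the wild type mean, well clear of the lowest wild type library at 92.0%. Mean levels of 374 ± 26.8 and 182 ± 30.5 CPM (SD, n = 3 each) differed by -1.04 on the log2 scale, with a standard error of 0.13 and an interval of -1.34 to -0.73. This missed the threshold in edgeR (adjusted p = 0.0780), where the gene ranked 20 of 17728 by p. It passed in DESeq2 (adjusted p = 1.46e-11) and in edgeR without a filter on low counts (adjusted p = 0.0119). Over the 14 alternatives the log2 fold change lay between -1.25 and -0.92, and the adjusted p between 1.46e-11 and 0.731.

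Smo and Sufu, whose products act between the receptor and the Gli factors, had overlapping groups. Smo (ENSMUSG00000001761, chromosome 6, 29735502 to 29761364, plus strand) had 77.5, 79.7 and 71.8 CPM in wild type and 67.9, 66.4 and 81.3 CPM in the knockdown-labelled libraries. Knockdown-labelled replicate 3 held the highest of the 6 values. Smo had a log2 fold change of -0.09 and an interval of -0.32 to 0.14. Sufu (ENSMUSG00000025231, chromosome 19, 46385335 to 46477243, plus strand), which restrains the Gli proteins, had 49.4, 54.4 and 47.5 against 42.9, 48.0 and 54.2 CPM. Knockdown-labelled replicates 2 and 3 lay within the wild type range, and the interval was -0.31 to 0.19.

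Among the Gli genes, only Gli3 had groups that did not overlap. Gli1 (ENSMUSG00000025407, chromosome 10, 127165751 to 127177843, minus strand), the usual readout of pathway activity, stood at 39.1, 34.2 and 37.4 CPM in wild type against 31.0, 37.1 and 40.8 CPM under the knockdown label. The means of 36.9 ± 2.47 and 36.3 ± 4.95 CPM (SD, n = 3 each) gave a log2 fold change of -0.02, and the interval of -0.30 to 0.25 leaves out the size of the difference seen for Hhip. Gli2 (ENSMUSG00000048402, chromosome 1, 118761862 to 118981349, minus strand) had 18.3, 20.3 and 17.6 against 17.6, 16.7 and 21.6 CPM, with an interval of -0.31 to 0.30. Knockdown-labelled replicate 3 had the highest value of both genes. Gli3 (ENSMUSG00000021318, chromosome 13, 15637820 to 15904611, plus strand) had 28.8, 27.5 and 28.9 against 25.7, 24.4 and 27.0 CPM. Its log2 fold change was -0.14, the interval ran from -0.32 to 0.04 and it did not pass (edgeR adjusted p = 0.390). The table's coordinates place Arhgap9 (743 counts over the 6 libraries) across the end of Gli1, Gm6556 (88 counts) across the start of Gli3 and 9530036O11Rik (270 counts) across Shh, each on the opposite strand. No strand setting is stated, so a few reads of these genes may have been assigned to either partner.

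Foxf1 (ENSMUSG00000042812, chromosome 8, 121811125 to 121814883, plus strand) had 239.8, 207 and 206 CPM in wild type and 123, 167 and 128 CPM under the knockdown label. The groups were apart, with knockdown-labelled replicate 2 nearest to wild type. Mean levels of 218 ± 19.1 and 139 ± 23.8 CPM (SD, n = 3 each) differed by -0.64 on the log2 scale, with a standard error of 0.13 and an interval of -0.95 to -0.33. It missed the threshold in edgeR (adjusted p = 0.128) and passed in DESeq2 (adjusted p = 0.000419). The adjusted p was 0.000419 to 0.731 over the 14 alternatives, and the log2 fold change was -0.79 to -0.55.

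Fendrr, the long noncoding RNA gene that starts 1276 bases from Foxf1 on the other strand, had the same pattern. Its level was 493, 442 and 409 CPM in wild type and 291, 346 and 285 CPM in the knockdown-labelled libraries, a log2 fold change of -0.54 (edgeR adjusted p = 0.123). The ratio of Foxf1 to Fendrr within a library overlapped between the groups, with a difference of -0.11 on the log2 scale (exact two-sided permutation p = 0.2), or -0.063 without knockdown-labelled replicate 1. Of the 5 neighbours listed for this locus, 0 were called in edgeR, 2 had an unadjusted p under 0.05 with lower levels and 1 with higher levels. The shares over all genes tested were 8.52% lower and 8.48% higher. Mthfsd, on the far side of Foxf1, stood at 44.4 ± 1.21 against 39.5 ± 1.59 CPM. Foxc2, a forkhead gene of vessels and other mesoderm, was low and had a higher mean (1.92 ± 0.971 against 5.18 ± 1.27 CPM, edgeR adjusted p = 0.198). Irf8, a myeloid gene, stood at 25.7 ± 0.815 against 26.0 ± 6.48 CPM.

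Levels of different genes were compared per length, in FPKM. In wild type the order by mean was Foxf1 (89.5 ± 7.61 FPKM), Hhip (40.9 ± 2.95), Shh (29.5 ± 2.37), Ptch1 (13.9 ± 0.916), Smo (13.5 ± 0.582), Gli1 (7.34 ± 0.524), Sufu (6.51 ± 0.401), Gli3 (2.94 ± 0.108) and Gli2 (2.70 ± 0.176, SD, n = 3 each). The ranges of the neighbours Ptch1 and Smo, Gli1 and Sufu, and Gli3 and Gli2 overlapped, and those of the other neighbours did not. In the knockdown-labelled group Foxf1 was again first, at 57.6 ± 8.87 FPKM. Shh (23.5 ± 1.61 FPKM) then stood ahead of Hhip (20.1 ± 3.09 FPKM) in mean, with overlapping ranges. Smo and Ptch1, Gli1 and Sufu, and Gli2 and Gli3 also overlapped there. In wild type, Foxf1 was above 97.9% of the genes tested and Hhip above 94.2%, while Gli2 was above 35.5%. The coefficient of variation was larger in the knockdown-labelled group for 8 of the 9 members, the exception being Shh (8.90% in wild type and 8.52% in the knockdown-labelled group). Libraries of that group were also further apart from each other over the whole table. The chi-square per degree of freedom of library pairs was 34.17 to 39.49 there, against 12.96 to 21.37 in wild type. The share of all genes with a larger coefficient was not computed, so the wider spread cannot be read as particular to these members.

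Ratios within each library compared the members with each other and with marker genes. Of 13 ratios, 5 had groups that did not overlap, each at the smallest exact two-sided permutation p of 0.1 (0.26 after Benjamini-Hochberg adjustment over the 13). Hhip was lower relative to Shh by 0.71, relative to Ptch1 by 0.69 and relative to 14 mesenchyme markers by 0.83 on the log2 scale. The log2 ratio of Hhip to Ptch1 counts was 0.72, 1.10 and 0.92 in wild type against 0.0093, 0.28 and 0.38 under the knockdown label. Hhip thus exceeded Ptch1 by less in all 3 of the latter. The ratio of Ptch1 to Shh was nearly equal in both groups (1.23 ± 0.169 and 1.21 ± 0.0609, log2 scale, SD, n = 3 each, exact permutation p = 1.0). Gli1 had a higher mean relative to Shh, by 0.31 (exact permutation p = 0.2), or by 0.17 without knockdown-labelled replicate 3. Foxf1 was lower relative to the mesenchyme markers by 0.44 and relative to 12 endothelium markers by 0.23, with no overlap in either case. With the median of the markers these differences were -0.31 and -0.42, so their order depends on how the markers are averaged.

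**Figure D2:**
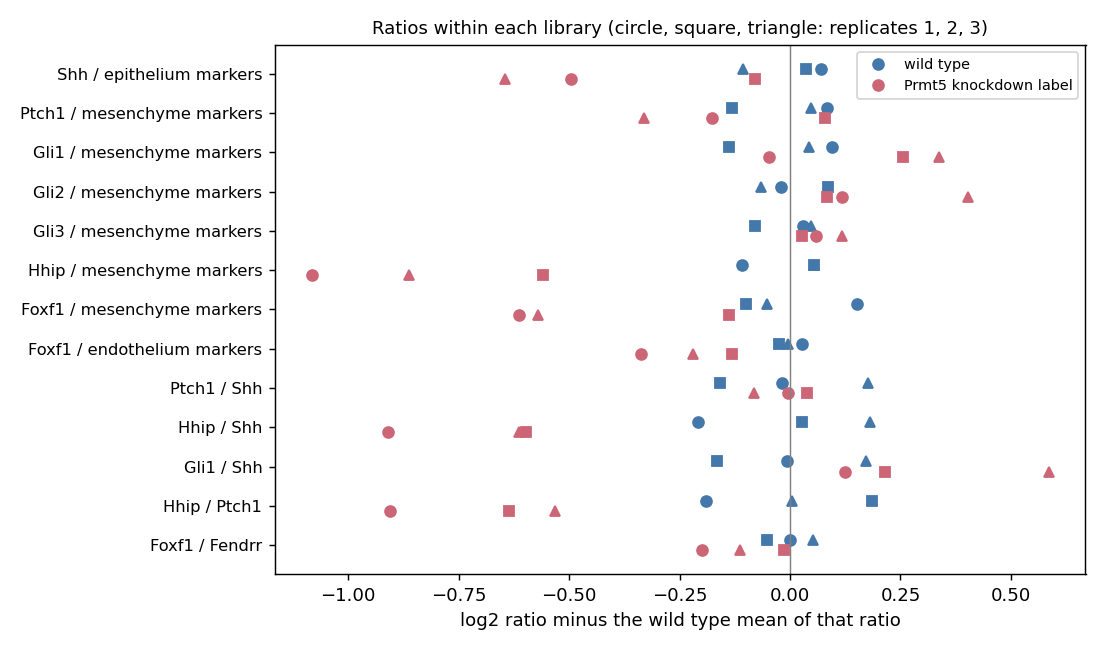
Log2 ratios within each library after the wild type mean of that ratio is taken off; blue points are wild type and red points knockdown-labelled libraries, with circles, squares and triangles for replicates 1, 2 and 3. The 5 ratios with separate groups are those of Hhip to mesenchyme markers, Shh and Ptch1 and of Foxf1 to mesenchyme and endothelium markers.

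The other genes of the pathway were read from 5 lists with 66 distinct tested genes. Of these, 0 were called in edgeR, 10 had an unadjusted p under 0.05 with lower levels and 6 with higher levels, and the median log2 fold change was -0.03. Over all genes tested, 8.52% were lower and 8.48% higher at that level, so the counts by role below are to be read against these shares. Among genes of ligand modification and release, 2 of 9 were lower at that level and 0 higher. They were Scube2, which helps release the lipid-modified ligand (51.6 ± 4.79 against 39.0 ± 5.69 CPM), and Ext1, a heparan sulphate polymerase (83.2 ± 5.69 against 71.1 ± 5.35 CPM). Hhat, which attaches palmitate to the ligand, stood at 4.57 ± 0.322 against 3.52 ± 0.297 CPM.

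Receptor partners went in both directions, with 2 of 8 lower and 1 higher at an unadjusted p under 0.05. The largest of these by size was Lrp2, an endocytic receptor that binds the ligand (20.3 ± 2.55 against 12.9 ± 2.78 CPM, edgeR adjusted p = 0.172). Mosmo, which lowers Smoothened at the membrane, stood at 69.2 ± 4.90 against 59.3 ± 5.11 CPM. Gas1, a co-receptor that promotes signalling, had the higher mean (31.6 ± 9.12 against 46.8 ± 10.8 CPM), with overlap between the groups.

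Inside the cell, 2 of 21 transduction genes were lower and 1 higher at that level, which is near the share over all genes. The lower ones were Kif7, the kinesin that organises Gli proteins at the cilium tip (14.4 ± 2.27 against 11.04 ± 0.339 CPM), and the kinase gene Stk36 (56.9 ± 6.22 against 46.1 ± 5.85 CPM). The higher one was Prkaca, a catalytic subunit of protein kinase A, which phosphorylates Gli proteins toward their repressor forms (125.0 ± 6.50 against 157 ± 19.8 CPM). Efcab7, of the Evc complex, stood at 7.77 ± 0.294 against 6.15 ± 0.703 CPM. Of the 12 genes of the cilium and its transport, 0 were lower and 1 was higher, Ift57 (22.5 ± 1.43 against 26.1 ± 0.549 CPM), and the log2 fold changes of the list spanned only -0.14 to 0.21.

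Known target genes of the pathway were mixed. Of 17 tested, 4 were lower and 3 higher at an unadjusted p under 0.05, and 0 were called in edgeR. The median log2 fold change was -0.13, and it was 0.0079 without knockdown-labelled replicate 1, -0.045 without wild type replicate 3, -0.22 without wild type replicate 2, -0.21 without knockdown-labelled replicate 2 and -0.27 without knockdown-labelled replicate 3. Jag2, a Notch ligand gene, stood at 81.5 ± 6.35 against 63.8 ± 1.04 CPM, Bmp4, a morphogen of distal lung, at 53.8 ± 5.25 against 41.6 ± 2.37 CPM, and the survival gene Bcl2 at 35.3 ± 1.86 against 29.6 ± 1.73 CPM. Foxc2, also a neighbour of Foxf1 and given above, had the highest fold change on the list. The deposited table's own pathway column puts 62 genes, 8 of the members among them, in Hedgehog signalling. Without the members, 38 of these were tested, with 7 lower and 3 higher at an unadjusted p under 0.05, 0 called and a median of -0.06.

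**Figure D3:**
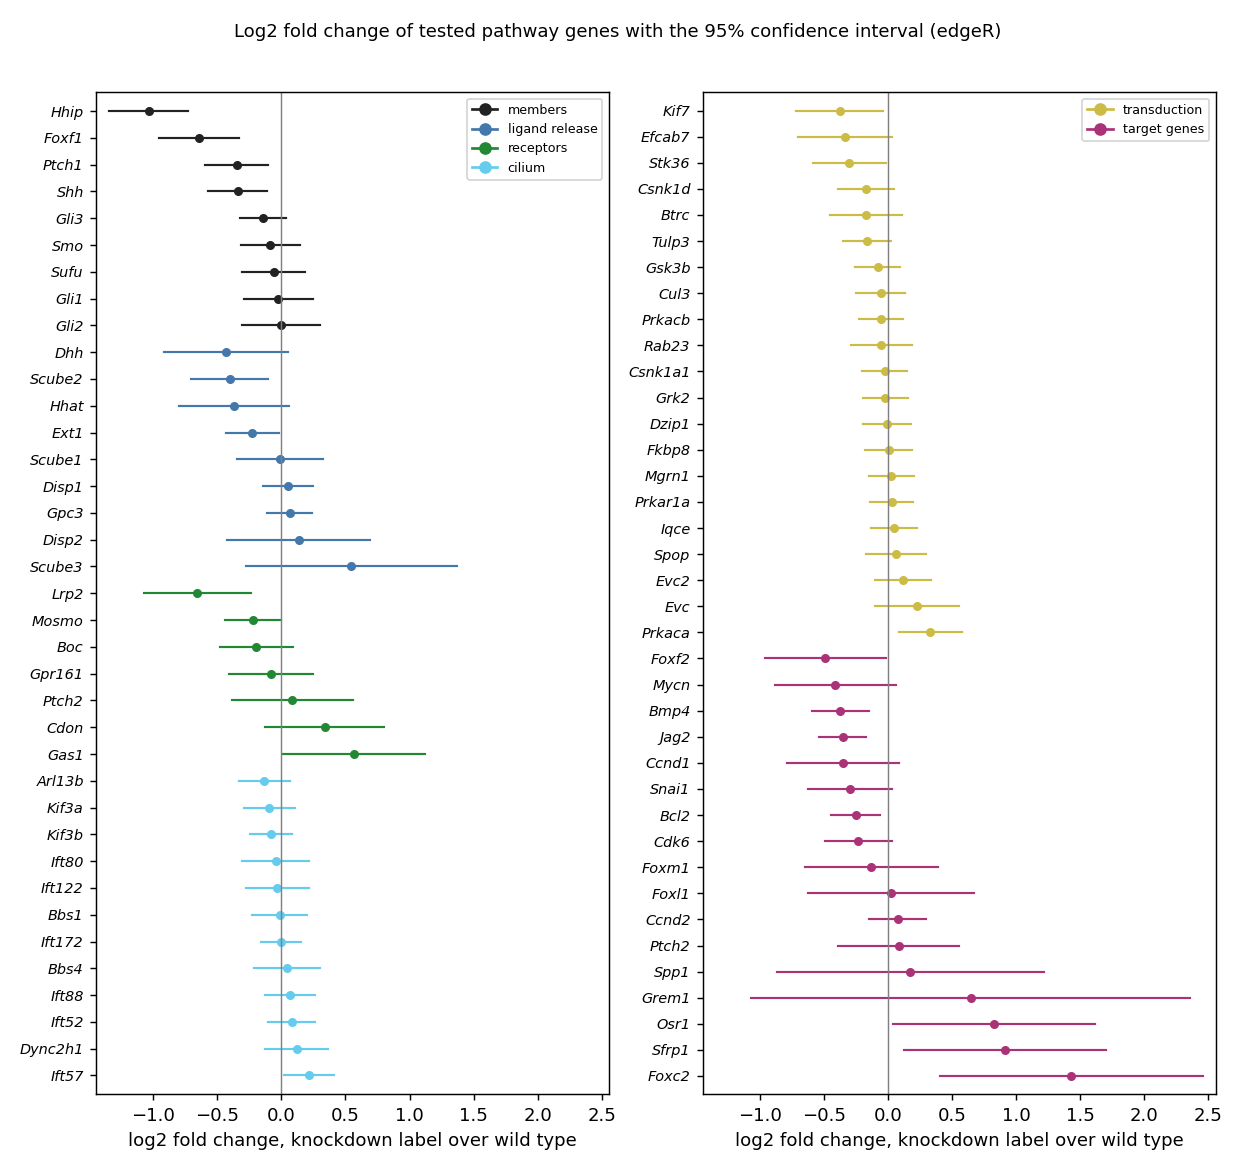
Log2 fold change of the tested members and pathway genes, 1 receptor gene left out (point) with its 95% confidence interval (line) from edgeR, coloured by role; negative values are lower in the knockdown-labelled lungs. Hhip, Foxf1, Ptch1 and Shh lie to the left with intervals clear of 0. Of the 66 other tested genes, 10 were lower and 6 higher at an unadjusted edgeR p under 0.05. Lrp2 (-0.66) and Bmp4 (-0.37) were among the lower ones. The points of the cilium genes, without their intervals, stay between -0.14 and 0.21.

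Genes reported downstream of Foxf1 all had negative log2 fold changes. Of 13 genes, 10 had an unadjusted p under 0.05 with lower levels, 0 were called in edgeR, and the median was -0.53, against -0.14 for the 9 members and 0.01 for all genes tested. Of all genes tested, 8.52% were lower at an unadjusted p under 0.05. Wnt2, a Wnt ligand gene of lung mesenchyme, stood at 51.5 ± 6.21 against 33.7 ± 2.27 CPM (edgeR adjusted p = 0.112). The adhesion gene Icam2 stood at 90.1 ± 6.87 against 60.1 ± 8.64 CPM, the vascular gene Tmem100 at 80.8 ± 3.997 against 55.5 ± 7.62 CPM and the receptor gene Acvrl1 at 387 ± 28.0 against 268 ± 33.8 CPM. Most genes of this list are endothelial, and 3 are also on the list of 12 endothelium markers. Those markers had a median of -0.42, 10 had an unadjusted p under 0.05 with lower levels, and their summed level was 3213 to 3661 CPM in wild type and 2261 to 2820 CPM under the knockdown label. The part of endothelial RNA in the levels of Foxf1 and this list was not tested.

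**Figure D4:**
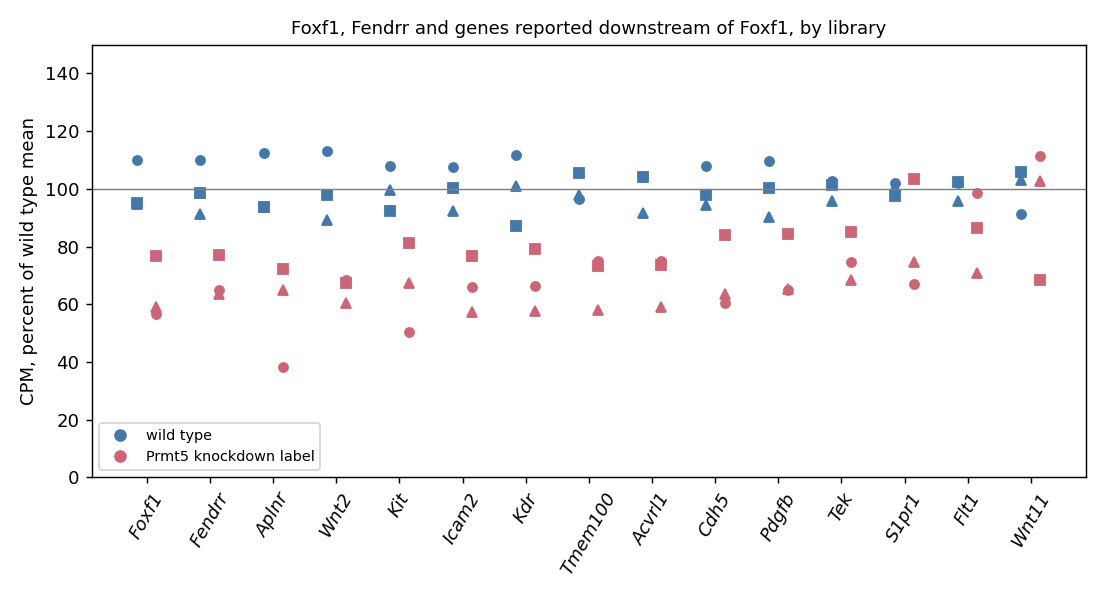
Level of Foxf1, Fendrr and 13 genes reported downstream of Foxf1 in each library, in percent of the wild type mean of CPM; blue is wild type, red knockdown-labelled, and circles, squares and triangles are replicates 1, 2 and 3. The knockdown-labelled values of Foxf1 are 56.6%, 76.6% and 58.9%, and S1pr1, Flt1 and Wnt11 are the genes whose groups overlap.

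Markers of the cells that receive the signal differed among themselves. Of 14 mesenchyme markers, 7 were lower and 1 higher at an unadjusted p under 0.05, beside 8.52% lower and 8.48% higher over all genes tested. In edgeR 0 of these markers were called, and their median was -0.19. The lower ones included Pdgfra, a receptor gene of lung fibroblasts (229 ± 6.69 against 174 ± 20.4 CPM), Tbx4 (206 ± 22.0 against 153 ± 14.3 CPM), Twist2 (2.57 ± 0.515 against 1.15 ± 0.296 CPM) and Pdgfrb (299 ± 24.6 against 238 ± 17.2 CPM). The higher one was Col1a1, a fibrillar collagen gene (1239 ± 123 against 1613 ± 246 CPM), whose groups did not overlap. Twist2 is also the gene to which the series text ties the knockout. Whether that design itself alters its level was not tested, and Twist2 was kept among the 14 markers of the ratios. Smooth muscle and myofibroblast markers, a list that holds Hhip, had a median of 0.20 (0.13 without wild type replicate 1, and 0.31 and -0.019 without knockdown-labelled replicates 2 and 3 in turn), with 1 of 12 lower, Hhip itself, and 1 higher at an unadjusted p under 0.05. The higher one was Des, a gene of heart muscle too (97.6 ± 60.8 against 227 ± 81.9 CPM). Airway cartilage markers, with 5 tested, and nerve and Schwann cell markers, with 8, had medians of 0.77 and 1.55. Without knockdown-labelled replicate 3 these were -0.60 and 0.45, so the sign of the first and most of the size of the second rest on that library. Cartilage was 0.45 and 1.45 without wild type replicates 2 and 3 in turn, and 1.17 and 1.18 without knockdown-labelled replicates 1 and 2. Mesothelium and blood cell markers had medians of -0.02 and 0.06, and distal tip and type 2 cell markers one of -0.07, and the sign of each of these 3 turned when single libraries were left out.

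**Figure D5:**
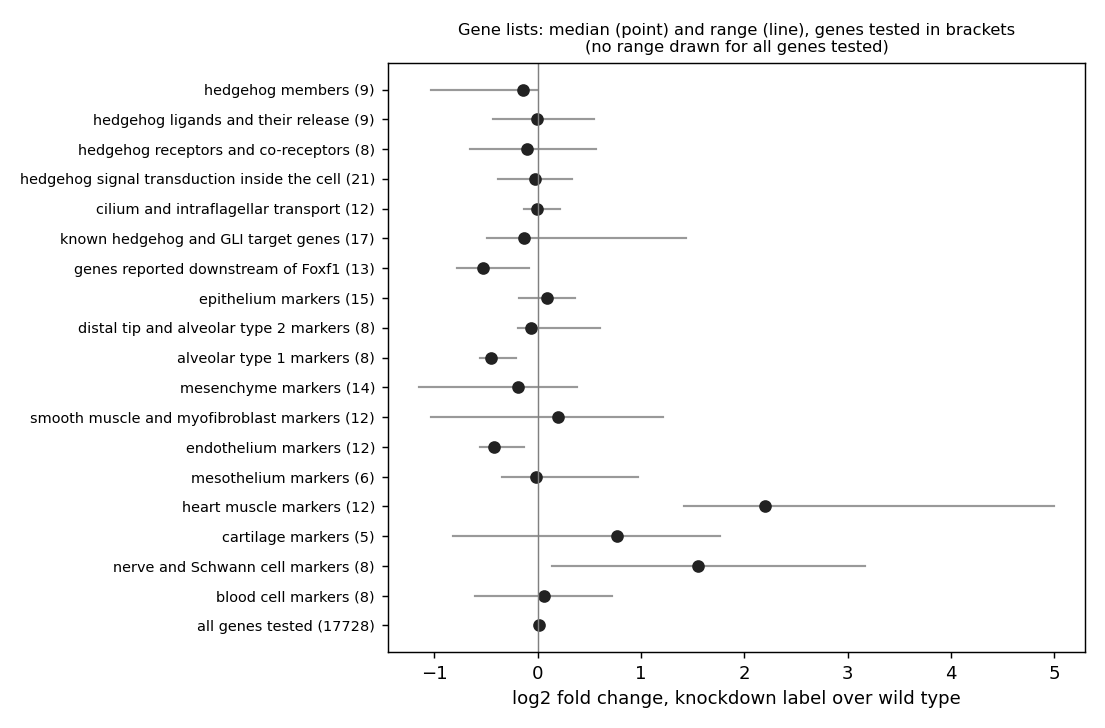
Median (point) and range (line) of the log2 fold change for each gene list, with the number of genes tested in brackets; negative values are lower in the knockdown-labelled lungs. The Foxf1 downstream, alveolar type 1 and endothelium lists have medians of -0.53, -0.45 and -0.42, and heart muscle one of 2.20. With single libraries left out the heart muscle median ran from 1.53 (without knockdown-labelled replicate 2) to 3.52 (without wild type replicate 3).

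Summed heart muscle levels did not overlap between the groups and were higher under the knockdown label, beside all of these differences. With its level as a covariate the log2 fold changes were -1.25 for Hhip, -0.73 for Foxf1, -0.50 for Ptch1 and -0.27 for Shh, and none passed (edgeR adjusted p = 0.731 for the first 3 and 0.782 for Shh). Because the heart muscle level was higher in every knockdown-labelled library, this fit cannot tell it apart from the genotype label. The highest Hhip, Foxf1, Shh and Ptch1 of the knockdown-labelled group were all in replicate 2, whose summed heart muscle level was also the highest. That library was also the only one of its group from a female embryo, so heart muscle level and sex cannot be told apart there. With embryo sex as a covariate the log2 fold changes were -0.95 for Hhip, -0.62 for Foxf1, -0.33 for Ptch1 and -0.33 for Shh.

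The genes whose profile over the 6 libraries was most like that of a member were taken from 8330 named genes with a mean of at least 5 FPKM, by the root mean square difference of log2 CPM after each gene's mean was taken off. For Foxf1 they were Kitl (0.035), Scn3b (0.046), Cdh5 (0.061) and Cd93 (0.070). A close profile over these 6 libraries does not show that genes share a cell type. For Hhip the closest were Frem1 (0.12), Pcolce2 (0.12), Itga2 (0.13) and Ism1 (0.16), so none of the 8330 genes was as close to Hhip as the first 4 were to Foxf1. This distance is not scaled by the size of the group difference, which was larger for Hhip than for Foxf1. For Ptch1 the closest were Plekha1 (0.031), Plekha2 (0.032), Klf7 (0.033) and Sptbn1 (0.036). For Shh they were Notch4 (0.037), Plaur (0.039), Gnai1 (0.039) and Peg13 (0.039). No other member was among the 4 closest genes of any of these, but Gli2 and Gli3 lay under 5 FPKM and were not candidates.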

How the data were processed

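Per the labels' protocols, libraries came from RNA selected by oligo(dT) and were sequenced from both ends. HTSeq 0.6.1, HISAT2 2.0.1 and cutadapt 1.9.1 are listed, with no role or setting, per the submitters' processing notes. The authors deposited raw counts and, per the file headers, FPKM for each gene and library. Deposited FPKM values agreed within 0.005 with values recomputed from counts and exonic lengths. The genome build is not given in the sources used here, so the table's coordinates are printed as they stand. The 9 members and all lists were chosen with earlier results of these data known.

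Counts of all 6 libraries were fitted with edgeR 4.0.16 in R 4.3.3 (filterByExpr, TMM, quasi-likelihood test, genotype label as the only term), with Benjamini-Hochberg adjustment over 17728 genes. The code of the fit was also run on simulated counts, drawn gene by gene with dispersions estimated from these data. Those counts held no heart muscle or sex differences, so that run cannot show how the fit deals with them. A standard error is the log2 fold change, unsigned, over the root of its F statistic. A floor of 3 counts is 0.154 to 0.212 CPM, for counting error only. Genes named are the members, Prmt5, up to 4 of smallest p per list, and 4 closest profiles each for Shh, Ptch1, Hhip and Foxf1. Ihh, Nkx2-1, Col1a1, S1pr1, Flt1, Wnt11 and the genes that overlap a member were chosen after their values were seen. The pathway column of the table was read as a list after the data were seen. Ratios used scipy 1.17.1 and log2(CPM + 0.5) for markers. Alternatives were DESeq2 1.42.0, limma 3.58.1 on log2 FPKM, other filters and scaling, covariates and leaving out each library. Promoter windows are from RefSeq. The values of 1 receptor list gene are not reported here.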

Additional observations from a re-analysis of the deposited data

How the results depend on the processing

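The differences of Shh, Ptch1, Hhip, Foxf1 and Gli3 kept their sign in all 14 alternative fits. The number of members called, 0 of 9 in edgeR with 4 at an unadjusted p under 0.05, became 1 without a filter on low counts (Hhip) and 2 in DESeq2 (Hhip and Foxf1), and it was 0 with each library left out. Genes called over the whole table went from 6 to 81 without a filter, 829 in DESeq2, 3 in limma with a pseudocount of 0.1, 0 with embryo sex and 1 with heart muscle level as a covariate, and 0 to 17 with a library left out (17 without wild type replicate 3, 1 without knockdown-labelled replicate 3, 0 without any other). The cause was not tested. Members near 0 changed sign. The log2 fold change of Gli2 was 0.00061 when genes under a mean of 1 FPKM were dropped, 0.0029 and 0.0019 in limma with pseudocounts of 1 and 0.1, and 0.19 with the heart muscle covariate, where Smo was 0.088 and Sufu 0.042. Over the fits that each leave out 1 library it was -0.11 to 0.088 for Gli1, -0.12 to 0.068 for Gli2 and -0.15 to 0.029 for Sufu, and -1.17 to -0.92 for Hhip with an edgeR adjusted p of 0.0525 to 0.411. The difference in the ratio of Ptch1 to Shh was -0.095 to 0.073 with a library left out, and it was positive without wild type replicate 3 (0.073) or knockdown-labelled replicate 3 (0.017). That of Ptch1 to mesenchyme markers was -0.14, or -0.0092 with the median of the markers, -0.25 without knockdown-labelled replicate 2 and -0.049 without knockdown-labelled replicate 3. No paired analysis was possible, because no number in the sample titles is shared by both groups and litters are not named. The numbers 1 to 3 used here follow the order of deposit within each group.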
